A study of Caenorhabditis elegans with 4 samples.

Results

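The nephronophthisis genes of *C. elegans* measured here are *nphp-1* (M28.7), *nphp-2* (Y32G9A.6) and *nphp-4* (R13H4.1). Probe sets were taken by gene name: each probe set that the platform annotation names for one of the 3 genes was kept, dim ones included. Of the 3 genes 2 had a probe set. This gave 3 probe sets of 22548, of which 1 names *nphp-1* (188309_s_at) and 2 name *nphp-4* (174680_at and 178027_at). For *nphp-2* 0 probe sets are named, so its RNA is not analysed here. All 3 probe sets were bright enough to be tested, among 13096 that were. In RefSeq (WBcel235) *nphp-1* lies on chromosome II, and *nphp-2* and *nphp-4* lie on chromosome V.

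Nephronophthisis is an inherited cystic kidney disease of humans, and its genes encode proteins of the cilium. NPHP-1 (nephrocystin-1) and NPHP-4 (nephroretinin, or nephrocystin-4) sit together at the transition zone, the stretch at the ciliary base where Y-shaped links tie the microtubules to the membrane and where entry into the cilium is gated. NPHP-2 is the counterpart of human inversin and lies further along the worm cilium. In *C. elegans* the only ciliated cells are sensory neurons, and the NPHP module works beside a second transition zone module named after Meckel syndrome (MKS): loss of either alone leaves cilia mostly built, while loss of both disrupts their anchoring. DAF-19, an RFX transcription factor, binds X-box motifs upstream of many ciliary genes.

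RNA of embryos, freed from gravid adults by hypochlorite, was hybridised to 4 one-colour Affymetrix *C. elegans* genome arrays, with 5 micrograms of total RNA for each. The 2 arrays labelled *daf-19(-)* carry *daf-19(m86)* and *daf-12(sa204)*, and the 2 arrays labelled *daf-19(+)* carry *daf-12(sa204)* alone. The *daf-12* allele is thus shared by all groups, and it was used because it suppresses the constitutive dauer arrest of *daf-19(m86)*. Replicates are numbered 1 and 2 in each group. The study speaks of 2 separate array experiments, without saying which arrays made up each. Whether they came from separate cultures is not stated, and the p-values cover array-to-array spread, which may be technical. Whole embryos were used, so fewer ciliated neurons and less RNA per neuron cannot be told apart.

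The naming of the groups is contradictory. The study's own listing of its array results heads the same signals with the opposite genotypes in 1998 of 1998 rows compared, the 3 probe sets described here included. The targeted gene does not settle it: the brighter *daf-19* probe set gave 2493.4 and 2365.2 in the group labelled *daf-19(-)* and 767.5 and 856.8 in the group labelled *daf-19(+)*, so *daf-19* RNA was higher where the label says the gene is mutated, and nothing used here says whether *m86* removes the RNA these probes detect. *osm-6* and *osm-1*, genes of intraflagellar transport known from earlier work to need DAF-19 for their expression, also read higher where the label says *daf-19(-)*, with ratios of 34.0 and 4.27, against what that dependence and the labels would give. All differences below are arrays labelled *daf-19(-)* over, or minus, arrays labelled *daf-19(+)*. They run opposite to the direction of the study's listing, and a value read as higher here is read as lower in *daf-19(-)* under the other naming.

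Signals are GCOS intensities scaled by the authors to a mean of 500 for each chip, on a linear scale. The median signal of an array ranged from 106.0 to 144.3, and between 12084 and 13454 probe sets reached a signal of 80, the floor used for testing. Log2 signals of different arrays correlated at 0.894 to 0.905 (across probe sets, not independent of each other). This was computed over all 22548 probe sets with no offset, so noise of dim ones enters it. The replicates of a group correlated at 0.905 and 0.898, so by this measure they were not clearly closer than arrays of different groups. Early zygotic embryo markers were present on every array, summing to 2408 and 2243 where the label is *daf-19(-)* and to 4914 and 3435 where it is *daf-19(+)*. Vitellogenins, yolk proteins made by adults, summed to 132 to 202 on 3 arrays and to 1001 on replicate 2 labelled *daf-19(+)*.

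*nphp-1* RNA was higher on both arrays labelled *daf-19(-)*. Its signal was 353.5 and 487.5 there, and 103.3 and 120.3 in the group labelled *daf-19(+)*. The groups did not overlap, and the 4 signals all lay above the floor, so that the ratio was measured on both sides. The means were 420.5 ± 94.8 (SD, n = 2) and 112 ± 12 (SD, n = 2), a ratio of 3.76, with 3.42 in replicate 1 and 4.05 in replicate 2. The log2 fold change, computed on log2(signal + 16), was 1.76 (standard error 0.30, 95% interval 1.11 to 2.41), and *nphp-1* passed limma over all tested probe sets with an adjusted p = 0.0183. It stood at rank 61 by fold change and rank 33 by p among the 13096. The suffix of this probe set marks probes shared by more than 1 transcript, and the annotation names *nphp-1* alone for it.

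*nphp-4* was represented by 2 probe sets, both of them higher on the arrays labelled *daf-19(-)*. For 174680_at the signal was 212.4 and 306.3 against 78.9 and 102.1, with means of 259 ± 66.4 (SD, n = 2) and 90.5 ± 16.4 (SD, n = 2). The groups did not overlap, although the lowest signal, of replicate 1 labelled *daf-19(+)*, fell just under the floor of 80. The ratio of the means was 2.87, and the log2 fold change of 1.36 (standard error 0.35, 95% interval 0.61 to 2.10) did not pass limma, with an adjusted p = 0.103. In the study's listing this probe set derives from the 3' end read of a cDNA clone that is given no gene name there; the platform annotation assigns it to *nphp-4*.

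For 178027_at, which was designed on the predicted gene R13H4.1 itself, the signal was 267.3 and 265.7 against 106.7 and 153.2. The arrays labelled *daf-19(-)* were nearly equal, and the spread lay between the other 2 arrays, with means of 266 ± 1.13 (SD, n = 2) and 129.9 ± 32.9 (SD, n = 2). The ratio of the means was 2.05, made of 2.51 in replicate 1 and 1.73 in replicate 2. Its log2 fold change of 0.97 (standard error 0.32, 95% interval 0.29 to 1.65) did not pass limma either, with an adjusted p = 0.163. Both probe sets of *nphp-4* therefore gave the same direction and overlapping intervals, and neither passed over all probe sets in this fit.

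**Figure D1:**
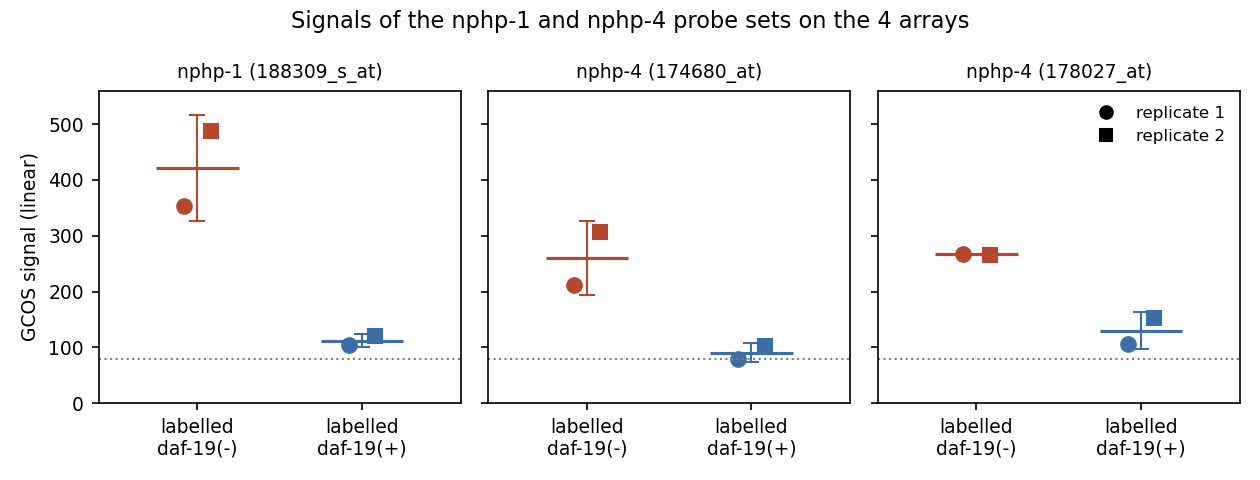
Signals of the *nphp-1* probe set and both *nphp-4* probe sets on each array (vertical axis, GCOS signal on a linear scale from 0), with circles for replicate 1, squares for replicate 2, horizontal lines for group means, bars for the SD of 2 arrays and a dotted line at the floor of 80. In each panel both arrays labelled *daf-19(-)* lie above both arrays labelled *daf-19(+)*, from 353.5 and 487.5 against 103.3 and 120.3 for *nphp-1* to 267.3 and 265.7 against 106.7 and 153.2 for the second *nphp-4* probe set.

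Read against all tested probe sets, 1 of the 3 probe sets was called higher by limma, where 0.359% of all were. All 3 had a ratio of mean signals of 2 or more, a level that 3.13% of tested probe sets reached, although that of 178027_at was 1.77 after quantile normalization. In all 3 both arrays labelled *daf-19(-)* exceeded both labelled *daf-19(+)*, which 29.7% of tested probe sets did as well, so the separation of 2 arrays from 2 is by itself common here. The smallest p that an exact permutation test of 2 against 2 arrays allows is 0.333, two-sided, and each of the 3 probe sets had this p. The 3 were chosen with earlier results of these arrays known, and the 2 *nphp-4* probe sets measure 1 gene.

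The *nphp-4* result depended on the fit and on 1 array. The replicate number may stand for the 2 array experiments that the study speaks of, although no source says so or gives a shared day or batch. With this number as a block, limma called all 3 probe sets higher, where 4.37% of those tested were. The block did not narrow the standard errors of *nphp-4*. They were 0.36 for 174680_at and 0.33 for 178027_at, against 0.35 and 0.32 without it. In the blocked fit limma took each variance from the trend alone, and calls rose over all tested probe sets, from 0.359% without the block. Whether *nphp-4* passed thus depended on the fit, and the share of the pairing in this was not tested. Without replicate 2 of the group labelled *daf-19(+)*, limma let both *nphp-4* probe sets pass, at adjusted p = 0.0332 and adjusted p = 0.0432, where 7.41% of tested probe sets were called higher.

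The call of *nphp-1* rested on several arrays. It did not pass without replicate 1 labelled *daf-19(-)* (adjusted p = 0.0559 from limma), without replicate 2 labelled *daf-19(-)* (adjusted p = 0.235) or without replicate 1 labelled *daf-19(+)* (adjusted p = 0.102). Its size moved less: the ratio of mean signals with 1 array left out ran from 3.16 to 4.36. For *nphp-4* it ran from 2.35 to 3.38 for 174680_at and from 1.74 to 2.50 for 178027_at. The direction was the same for all 3 probe sets in each of the 13 other settings tried.

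**Figure D2:**
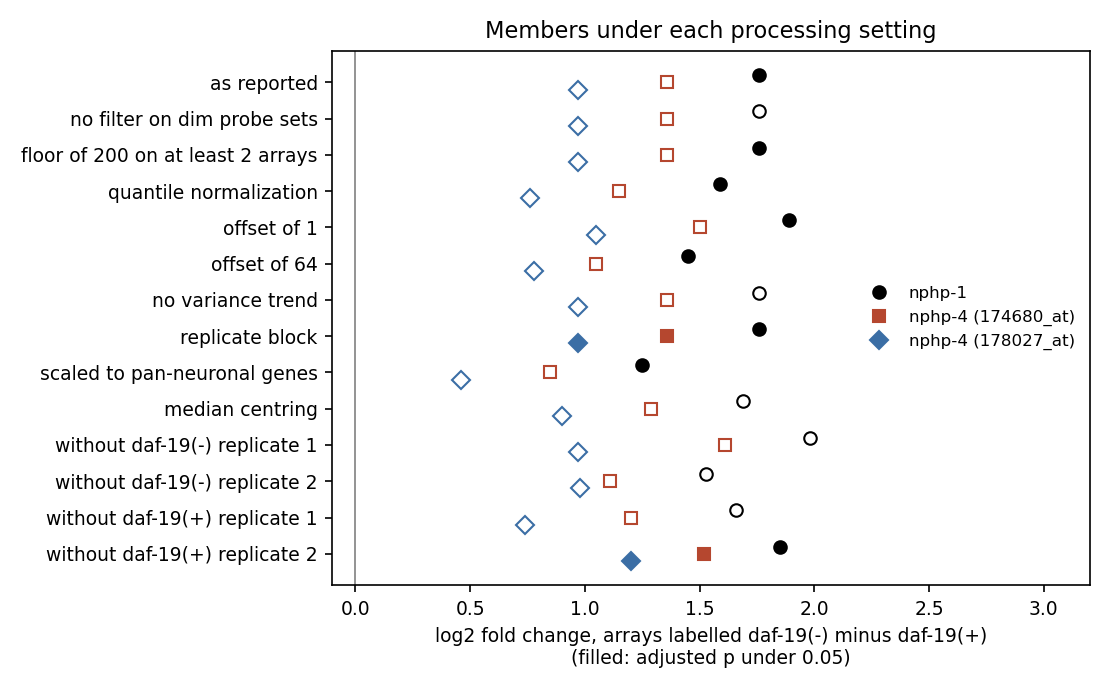
Log2 fold change of each probe set (horizontal axis, arrays labelled *daf-19(-)* minus *daf-19(+)*) under every processing setting (rows, small vertical offsets only separate the symbols), filled where the adjusted p is under 0.05. All points lie above 0, *nphp-1* (circles) between 1.25 and 1.98 and 178027_at of *nphp-4* (diamonds) between 0.46 and 1.20.

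The difference was larger for *nphp-1* than for *nphp-4* in these values, by 0.40 on the log2 scale against 174680_at and by 0.79 against 178027_at. The intervals of the 3 log2 fold changes overlap. Taken within each array, *nphp-1* minus 178027_at came to 0.38 and 0.84 where the label is *daf-19(-)* and to -0.04 and -0.31 where it is *daf-19(+)*, and *nphp-1* minus 174680_at was 0.69 and 0.64 against 0.33 and 0.21. The groups did not overlap in either case. An exact permutation test, two-sided, gave p = 0.333 for both, which is the smallest that 4 arrays allow, so it cannot tell whether the members differ.

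Genes of the MKS module, the partner module at the transition zone, were in part called higher on the same arrays. Of the 12 genes listed, 10 had a probe set named for them and 9 were tested. Of these 5 were called higher and 0 lower by limma, where 0.359% of all tested probe sets were called higher. The median log2 fold change was 2.55 against 0.06 over all tested probe sets. All but 1 of the 9 passed the filter with the help of the arrays where they are high, so a call in the lower direction was hardly possible for them. The 5 are *tctn-1*, a tectonic (log2 fold change 4.32, adjusted p = 2.2e-04), *mks-6*, which has a C2 domain (3.33, adjusted p = 0.00593), *mks-3*, the counterpart of human meckelin (2.74, adjusted p = 0.0102), the B9 domain gene *mksr-2* (2.65, adjusted p = 0.00593) and the transmembrane protein gene *tmem-231* (2.55, adjusted p = 6.7e-04). The smallest value was that of *mksr-1*, another B9 domain gene, with 0.93 (adjusted p = 0.246). *tmem-107*, another transmembrane protein gene, had 1.19 (adjusted p = 0.203). *jbts-14* with 2.41 and *cdkl-1* with 1.85 did not pass limma either (adjusted p = 0.0912 and adjusted p = 0.107). The *nphp* values of 1.76, 1.36 and 0.97 thus lay in the low part of the range of the MKS genes. Among the tested MKS genes only *mksr-1* and *tmem-107* had a smaller value than *nphp-1*.

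Many of the MKS signals on the arrays labelled *daf-19(+)* were under the floor. *tmem-231*, with 84.6 and 89.5, was the 1 of the 9 at or above it on both of these arrays, whereas *mksr-1* had 54.9 and 111.2, *mks-6* had 17.6 and 4.8 and *tctn-1* had 4.9 and 5.0. Of the *nphp* probe sets, 174680_at was also under it on 1 of these arrays, with 78.9, and *nphp-1* and 178027_at were above it on both. The sizes of the dim differences depend on the offset: the MKS median was 3.14 with an offset of 1 and 1.85 with an offset of 64. Whether the *nphp* genes changed less than the MKS genes was not tested. *mks-1* was too dim to be tested, with 82.9 and 57.1 against 1.7 and 1.6, and *mks-2* and *tmem-17* have no probe set named for them. The lack of a name does not mean that *tmem-17* was absent from the arrays. Its likely counterpart, ZK418.3, was measured on them. The signals of ZK418.3 were not examined here, so the MKS values leave this gene out.

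**Figure D3:**
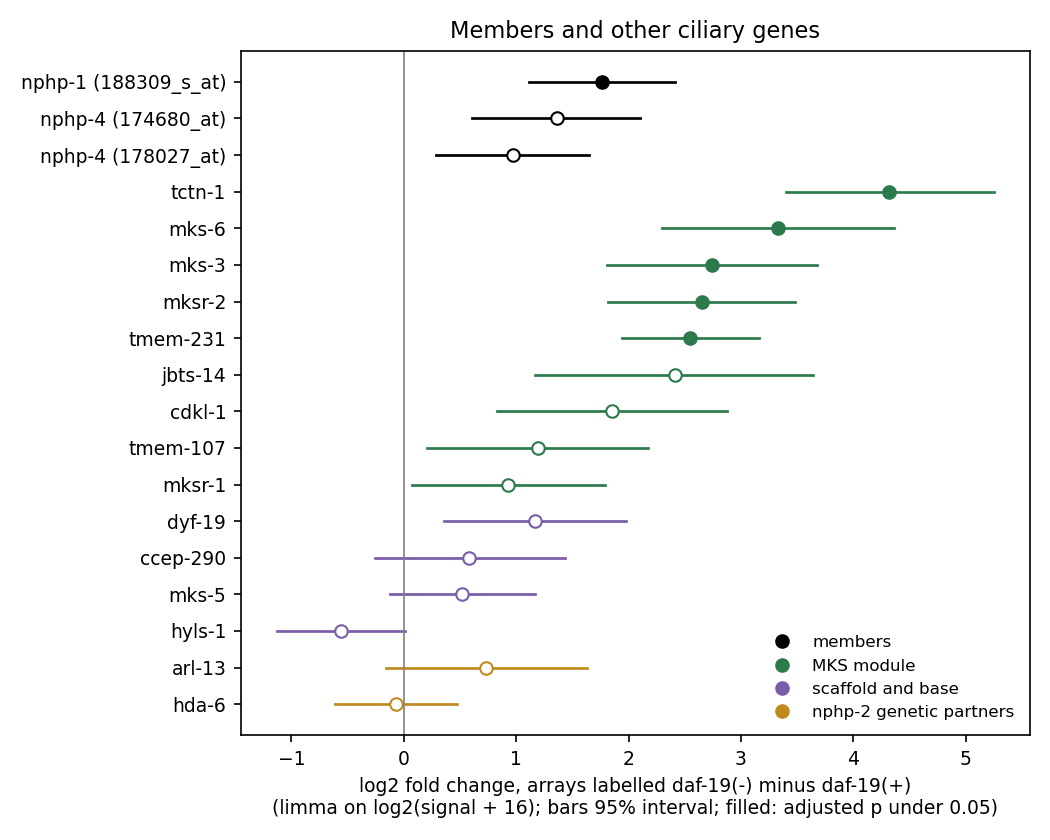
Log2 fold changes (horizontal axis, arrays labelled *daf-19(-)* minus *daf-19(+)*, limma on log2(signal + 16)) of the *nphp* probe sets and of the tested genes of 3 ciliary lists, with 95% intervals, filled where the adjusted p is under 0.05. *nphp-1* at 1.76 and *nphp-4* at 1.36 and 0.97 lie in the low part of the range of the MKS genes, which runs from 0.93 to 4.32 with a median of 2.55. *hyls-1* at -0.56 lies on the other side of 0.

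Of the genes of the transition zone scaffold and of the ciliary base, 0 of the 4 tested passed limma in either direction, at a median log2 fold change of 0.55. Over all 13096 tested probe sets 47 were called higher and 11 lower, so 0 of 4 is common. *mks-5*, the scaffold on which both the MKS and the NPHP modules are assembled, read 273.2 and 321.5 against 163 and 248.1 (ratio 1.45). *ccep-290*, the counterpart of human CEP290, had 107.9 and 150 against 81.2 and 78.4, a ratio of 1.62, and its second probe set was too dim to be tested. *dyf-19*, a transition fibre gene, had the largest value of the list, 1.17 on the log2 scale (limma adjusted p = 0.16), and *hyls-1*, a centriolar gene, had the smallest, -0.56 (limma adjusted p = 0.277). With a floor of 200, *ccep-290* and *dyf-19* were no longer tested, and the median of *mks-5* (0.52) and *hyls-1* (-0.56) was -0.02. The values of the list lie on both sides of 0, so its median depends on which genes are tested.

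Since *nphp-2* itself has no values, the genes known to interact with it were examined. *arl-13*, a small GTPase of the ciliary membrane, read 141.7 and 119.6 against 52 and 97.6, or 0.73 on the log2 scale (limma adjusted p = 0.359). *hda-6*, a histone deacetylase 6 gene, had 788.9 and 575.9 against 859 and 585.6, or -0.07 on the log2 scale (limma adjusted p = 0.906). Neither passed, and for *hda-6* the groups overlapped.

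Other human nephronophthisis genes have worm counterparts outside the NPHP module. Of 7 such genes 6 were tested, and 1 was higher and 0 lower by limma, where 0.359% of all tested probe sets were higher. Their median log2 fold change was 1.18. Of the 6 tested, 2 reached the floor on both arrays labelled *daf-19(+)*. The rest passed the filter with the help of the arrays where they are high, so a call in the lower direction was hardly possible for them. The 1 is *mks-3*, already counted with the MKS module. The intraflagellar transport gene *osm-1* (IFT172) had 182.9 and 203.3 against 49.3 and 41.2, a ratio of 4.27 (adjusted p = 0.0773 from limma). *dyf-11*, the counterpart of TRAF3IP1, was the lowest, with 65.0 and 80.1 against 100.6 and 136.8 and -0.60 on the log2 scale (limma adjusted p = 0.443). *ift-139*, the counterpart of TTC21B, was too dim to be tested, with 71.9 and 114.4 against 18.1 and 5.4 on its brighter probe set.

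The neighbouring genes were examined to see whether the shift was shared along the chromosome. On the left of *nphp-1*, M28.10 read 117.8 and 160.1 against 68 and 119.5 (ratio 1.48) with overlapping groups. On its right, the 2 probe sets of *lact-3*, a beta-lactamase domain gene, had ratios of 0.930 and 0.945. None of these probe sets passed limma, with an adjusted p from 0.495 to 0.930.

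The RefSeq span of *nphp-4* holds 3 other protein-coding genes. Of these, R13H4.2 had 262.3 and 155.4 against 132.2 and 198.8, a ratio of 1.26 with overlapping groups, *pho-8* was too dim to be tested, with signals from 12.2 to 39.1, and *idpb-5* has no probe set named for it. *col-158*, a collagen gene that overlaps one end of the span, was also too dim, with signals from 3.6 to 24.2. The next gene on the left, D2023.6, had a ratio of 0.838, and the 4 probe sets of *hmp-1*, the alpha-catenin gene on the right, had ratios from 0.772 to 1.33. None of the tested ones passed limma, with an adjusted p from 0.397 to 0.929. The strand of the probes was not used here.

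**Figure D4:**
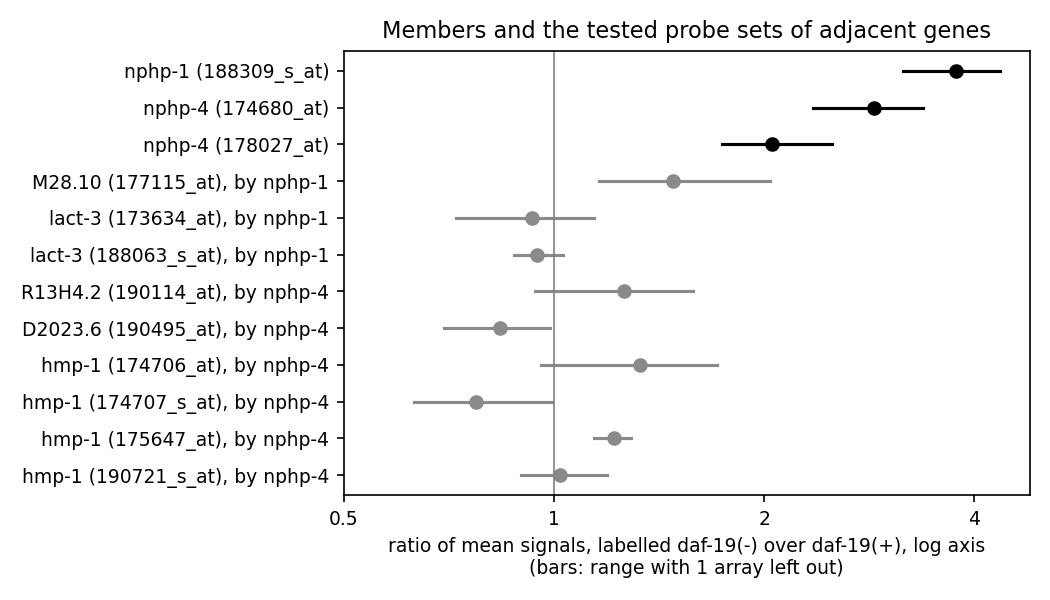
Ratio of mean signals, labelled *daf-19(-)* over labelled *daf-19(+)* (horizontal axis, log scale), of the *nphp* probe sets (black) and of tested probe sets of genes inside or next to *nphp-1* and *nphp-4* (grey), with bars for the range when 1 array is left out. The *nphp* ratios are 3.76, 2.87 and 2.05, and those of the adjacent genes run from 0.772 to 1.48.

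Profiles over the 4 arrays were compared by the root mean square difference of log2(signal + 16), each profile centred on its own mean. This rests on 4 arrays and describes them only. Nearest to *nphp-1* were Y43F8C.11 (difference 0.0794), *lgc-20*, a ligand-gated ion channel gene (0.123), Y47G6A.15 (0.142), *ifta-1*, a gene of IFT complex A (0.153), and *osm-1* (0.173). Of the *nphp-4* probe sets, 174680_at stood at place 9 for *nphp-1*, with a difference of 0.206, and 178027_at at place 181, with 0.436. *lgc-20* had signals of 380.9 and 447.2 against 102.1 and 100.3, and *ifta-1* had 388 and 479 against 81.6 and 121.4, so both were matched to *nphp-1* on bright arrays and dim arrays alike.

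Nearest to 174680_at were *fezf-1*, a zinc finger transcription factor gene (0.0185), *rab-28*, a small GTPase gene (0.0421), K01D12.1 (0.0627), Y47G6A.15 (0.0668) and T04A6.2 (0.091). *rab-28*, whose product is found in worm cilia, read 290.9 and 388.6 against 102.6 and 137.3 (ratio 2.83, limma adjusted p = 0.0807). Nearest to 178027_at were Y95B8A.6 (0.0336), R06C1.6 (0.0451), *cls-1*, a CLASP family microtubule gene (0.0479), F10A3.11 (0.0537) and Y42A5A.3 (0.0542). The 2 *nphp-4* probe sets differed from each other by 0.268, with 178027_at at place 135 for 174680_at and 174680_at at place 1399 for 178027_at, for which *nphp-1* stood at place 4516.

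Among markers of other cells, 0 members of the pan-neuronal, glia, muscle, intestine, hypodermis, early zygotic, maternal and vitellogenin lists passed limma in either direction. Over all 13096 tested probe sets 47 were called higher and 11 lower. With so few calls, 0 in lists this short does not show that these cells were unchanged. Pan-neuronal genes summed to 11688 and 11662 against 8182 and 10566, with a median log2 fold change of 0.55 over 11 tested genes, from *unc-10* at 0.86 down to *unc-119* at -0.19. Of the genes of ciliated neurons outside the transition zone, 5 of 8 were higher by limma (*osm-6*, *che-13*, *xbx-1*, *osm-5* and *che-3*). The share over all tested probe sets was 0.359%. The median log2 fold change of the 8 was 2.66, from *osm-6* at 3.33 to *che-11* at 1.57, against 0.06 over all tested probe sets. Each of the 8 passed the filter only with the help of arrays where it is high. A call in the lower direction was thus hardly possible for them. Where the label is *daf-19(+)*, *osm-6* had 7.5 and 4.8, and the sizes of such dim differences depend on the offset. The summed signal of the list was 1654 and 1853 against 132 and 301.

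Among the other lists the median log2 fold change was 0.73 for 4 glia genes, from *ptr-10* at 0.88 to *kcc-3* at 0.16, and 0.40 for 8 muscle genes, from *unc-22* at 0.74 to *hlh-1* at -0.14. It was 0.26 for 7 intestine genes, from *ifb-2* at 0.47 to *end-1* at -0.76, and 0.19 for 5 hypodermis genes, from *elt-3* at 0.24 to *elt-1* at -0.33. It was -0.75 for 6 early zygotic genes, from *end-3* at 0.26 to *lsy-27* at -0.93, and -0.20 for 10 maternal genes, from *oma-2* at 0.01 to *nos-2* at -0.59. The 1 tested vitellogenin, *vit-6*, had -1.09. The part of these values in the *nphp* differences was not tested.

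When every array was scaled to its pan-neuronal genes, an alternative chosen after the data were seen, *nphp-1* was still called by limma at 1.25 on the log2 scale (adjusted p = 0.0238), where 0.420% of tested probe sets were called higher. The *nphp-4* values were then 0.85 for 174680_at (adjusted p = 0.123) and 0.46 for 178027_at (adjusted p = 0.367). This scaling moves all probe sets by the same amount, and the median of all went from 0.06 to -0.45, so the lower *nphp* values are not particular to them.

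**Figure D5:**
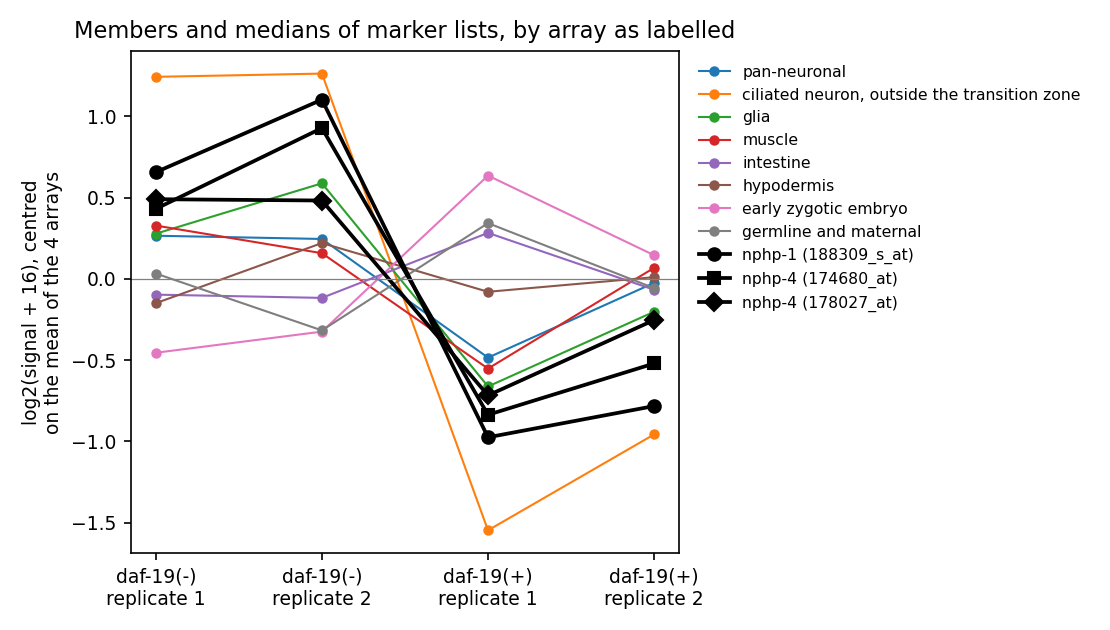
Log2(signal + 16) of the *nphp* probe sets (black) and the median of each marker list with at least 4 tested genes (colours), on the 4 arrays as labelled. Each is centred on its mean over the arrays (vertical axis, log2 units). The vitellogenin list is not drawn. Among the lists drawn the ciliated neuron list differs most between arrays. Replicate 1 labelled *daf-19(+)* is the lowest array for the *nphp* probe sets and for the ciliated neuron, pan-neuronal, glia and muscle lists. It also has the lowest median signal of the 4 arrays, 106.0. For intestine genes the median by array is lower on the arrays labelled *daf-19(-)* although the median of the single fold changes is 0.26.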

How the data were processed

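The values analysed are intensities of Affymetrix *C. elegans* genome arrays. The authors ran each chip through GCOS, whose version is not given in the sources used here, set its mean to 500 and deposited 1 linear intensity for each probe set. No correction between chips beyond this scaling is described, and detection calls were not used here. From the deposited signals, 77 control probe sets of 22625 were left out. The platform annotation names 1 gene for 20766 of the rest and several for 887, and does not list 895; current symbols came from RefSeq, where 20701 matched.

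The 13096 probe sets that reached 80 on 2 arrays or more were tested, two-sided, on log2(signal + 16) by limma 3.58.1 in R 4.3.3 (lmFit, then eBayes with trend), and called at a p below 0.05 after Benjamini-Hochberg adjustment. Ratios are of mean signals, with no offset. A gene of a list was represented by its brightest tested probe set. The named genes are the members, the extremes and the called genes of each list, the 5 nearest profiles of each member, and *daf-19*. Other list genes and the neighbouring genes named (*mks-1*, *mks-5*, *ccep-290*, *osm-1* and *ift-139* among them) were chosen after their values were seen. The members, lists, tests and alternatives were chosen with earlier results of these data known, and those called chosen after the data were seen were added later still. *hdac-6* and ZK328.7 of the lists are named *hda-6* and *ift-139* in RefSeq.

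The fit has no block for the replicate number. The test was checked on simulated data, with noise independent between arrays and a spread set by the mean signal alone. The check does not cover an array that departs from the others, or spread that differs between genes of like signal. Having 2 arrays a group limits the precision. Sequences of the genes and probes were not used here, and neither was a genome.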

Additional observations from a re-analysis of the deposited data

How the results depend on the processing

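The 3 *nphp* probe sets kept their direction in all settings tried. The call of *nphp-1* (log2 fold change 1.76, adjusted p = 0.0183 from limma) was lost at the same 1.76 with no filter on dim probe sets (adjusted p = 0.173) and with no variance trend (adjusted p = 0.0715), and at 1.69 with median centring, chosen after the data were seen (adjusted p = 0.0531). With 1 array left out its log2 fold change ran from 1.53 to 1.98 (adjusted p from 0.0162 to 0.235), that of 174680_at of *nphp-4* from 1.11 to 1.61 (adjusted p from 0.0332 to 0.564) and that of 178027_at from 0.74 to 1.20 (adjusted p from 0.0432 to 0.642). The arrays share replicate numbers, the study's listing gives a fold within each number, and the study speaks of 2 separate array experiments. No source states that a number stands for a day, a batch or 1 of these experiments. The deviations of same-numbered arrays correlated at 0.121 over 13096 probe sets. With the replicate number as a block, 174680_at and 178027_at passed at 1.36 (adjusted p = 0.00669 from limma) and 0.97 (adjusted p = 0.048), with 572 probe sets (4.37%) higher and 394 lower, and limma took each variance from the trend alone. Then 7 MKS genes, 3 other human nephronophthisis genes, 8 ciliated neuron, 2 pan-neuronal, 2 glia and 2 muscle genes were also higher, and 3 early zygotic genes and 1 intestine gene lower. Over all alternatives the adjusted p ran from 5.8e-06 to 0.235 for *nphp-1*, from 0.00669 to 0.564 for 174680_at and from 0.0432 to 0.642 for 178027_at.

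Ratios after quantile normalization were 3.30 for *nphp-1*, 2.44 for 174680_at and 1.77 for 178027_at, and with 1 array left out from 3.16 to 4.36, from 2.35 to 3.38 and from 1.74 to 2.50. Over all probe sets 47 were higher and 11 lower; this became 11 and 2 with no filter, 26 and 2 with no variance trend, 31 higher after quantile normalization, 20 lower with an offset of 64, 27 and 6 with median centring, 1001 lower when scaled to pan-neuronal genes, and from 14 to 971 higher and from 4 to 614 lower with 1 array left out, the extremes of 971 and 614 without replicate 2 labelled *daf-19(+)*. The 410 probe sets 2-fold higher became 232 after quantile normalization, 2867 with no filter and from 398 to 1232 with 1 array left out. The 5 called MKS genes became 2 with no filter and from 2 to 7 with 1 array left out. Of the other human nephronophthisis genes 0 were called with no filter, 2 with no variance trend and from 0 to 3 with 1 array left out. With a floor of 200 the median log2 fold change was -0.02 for the scaffold list, where *ccep-290* and *dyf-19* were no longer tested. For the partners of *nphp-2* it was -0.07, the unchanged value of *hda-6*, since *arl-13* was no longer tested. For other changes the cause was not tested.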
